A study of Drosophila melanogaster with 6 samples.

Results

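The synaptic vesicle release machinery is described here by 10 genes: *Syt1*, *Syt4*, *Syt7*, *brp*, *nSyb*, *Syx1A*, *Snap25*, *unc-13*, *cpx* and *comt*. Members were all probe sets that the array's gene table pairs with exactly 1 of these genes, which gave 10 probe sets for 6 genes out of 13333 single-gene probe sets and 15131 in all. *Syt7*, *nSyb*, *Snap25* and *unc-13* had 1 probe set each, *cpx* had 2 and *brp* had 4. *Syt1*, *Syt4*, *Syx1A* and *comt* had no probe set paired with them in that table, so these 4 genes were not analysed here. RNA from 6 pools of *Drosophila melanogaster* heads, labelled female and of the Canton S laboratory strain, was measured on Affymetrix arrays, which read the 3' part of transcripts. Each age, 10 days or 40 days, was represented by 3 pools of 75 to 100 heads per the labels, which name no treatment and no other genotype. Values are log2 expression as deposited, so a difference of 1 is a 2-fold change, and the number of arrays limits their precision.

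At a chemical synapse, vesicles filled with transmitter dock at the active zone, are primed, and fuse with the membrane when calcium enters the terminal. Fusion is driven by the SNARE complex, in which neuronal Synaptobrevin (*nSyb*) on the vesicle zips together with Syntaxin 1A (*Syx1A*) and SNAP-25 (*Snap25*) on the plasma membrane. Synaptotagmins sense calcium, Complexin (*cpx*) holds spontaneous fusion in check and promotes evoked fusion, Unc-13 (*unc-13*) primes vesicles, Bruchpilot (*brp*) builds the scaffold that holds calcium channels near release sites, and NSF (*comt*) takes spent SNARE complexes apart. Which cells of the samples these transcripts come from was not analysed here.

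The samples carry neuronal RNA, but other tissues stand beside it. Of 14 neuron markers, 9 had a brightest probe set averaging 4 or more, led by *nrv3*, *Gad1* and *Appl*. The other 5, *futsch*, *para*, *Shab*, *Tbh* and *ple*, lay under 4. The 14 markers of the male reproductive tract had a median level of 14.35, and all 9 ovary and egg markers with a probe set lay under 4, with a median of 2.06. These levels go against RNA from female heads alone. Photoreceptor markers had a median of 11.22 over 7 genes and glia markers one of 8.79 over 9 genes, with 0 genes under 4 in either list. Gut markers, with a median of 14.94 over 5 genes, and muscle markers, with one of 11.94 over 8 genes, were bright too. The samples are therefore called by their age alone below. In bulk RNA, fewer neurons and less RNA per neuron cannot be told apart.

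Of the 10 member probe sets, 7 averaged 4 or more on the log2 scale and were tested. They come from all 6 genes with a probe set, but the tested one of *brp* hardly varied and gives no measure of an age difference. The 3 not tested were *brp* probe sets. None of the 7 differed between the ages by limma with Benjamini-Hochberg adjustment over all 10286 probe sets tested, where 0.340% were called. At an unadjusted p under 0.05, 1 of the 7 differed without the block and 2 with it, where 13.1% and 25.1% of all tested did. With the replicate number as a block, which compares the ages within each number, 1 of the 7 was called, *Syt7*, where 1.92% of all tested were called, and 0.622% were called higher at 40 days as it was. Leaving out a *brp* probe set with the same value on 5 of 6 arrays, 4 of the other 6 were higher and 2 lower at 40 days, with a median difference of 0.060, beside 0.0070 over all tested. With it the median was 0.044.

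*Syt7*, which encodes a synaptotagmin of high calcium affinity whose loss raises transmitter release at the fly neuromuscular junction, had the largest age difference of the members. Its probe set, 1627821_s_at, read 9.21, 8.80 and 8.86 in the 10-day samples of replicate numbers 1, 2 and 3, and 9.75, 9.38 and 9.75 in the 40-day samples. All 3 older samples lay above all 3 younger ones, with a gap of 0.17 between the groups. Groups that did not overlap in this direction were seen for 11.4% of all tested probe sets. The means were 8.96 ± 0.22 and 9.63 ± 0.21 (log2 ± SD, n = 3 each), a difference of 0.67 ± 0.15 (SE) or 1.59-fold, with a 95% interval of 1.22 to 2.07-fold.

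The call for *Syt7* depended on the block. Without it the limma adjusted p was 0.214 (unadjusted p = 0.00491), and with it the adjusted p was 0.0468, with a 95% interval of 1.35 to 1.87-fold. This interval, like the one without the block, is not adjusted for the number of probe sets tested. Within the numbers 1, 2 and 3 the 40-day sample was higher by 0.55, 0.58 and 0.89, and 26.1% of all tested probe sets were higher in all 3 numbers. Of all tested probe sets, 0.807% had a rise at least this large. The blocked call was lost when both samples of number 1, 2 or 3 were left out, with adjusted p = 0.219, 0.0866 and 0.0952 and differences of 0.73, 0.72 and 0.56. With fewer samples, these fits called 7, 118 and 32 of all tested probe sets in place of 198, so the loss was not particular to *Syt7*. The blocked call was also lost with eBayes without a trend (0.0611) and with no filter on dim probe sets (0.205).

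The age accounted for more of the spread of *Syt7* than of any other member that was tested. It made up 78.4% of the sum of squares over the 6 arrays, the replicate number 17.5% and the rest 4.14%, where the median over all tested probe sets was 22.0% for the age and 49.2% for the number. There were 2 ages and 3 numbers, and the share of each grows by chance with its number of levels. Relative to the mean of the 11 tested neuron marker probe sets on the same array, *Syt7* stood at 0.24 ± 0.14 at 10 days and 0.80 ± 0.26 at 40 days (log2 ± SD, n = 3 each). These groups did not overlap either, but the share of all tested probe sets without overlap on this scale was not analysed here. The difference was 0.55, or 0.64 with the 3 probe sets of *Sh* left out of the markers. Affymetrix gives the ending _s_at to probe sets whose probes can match transcripts of more than 1 gene, although the table lists *Syt7* alone, and both *cpx* probe sets have the same ending.

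**Figure D1:**
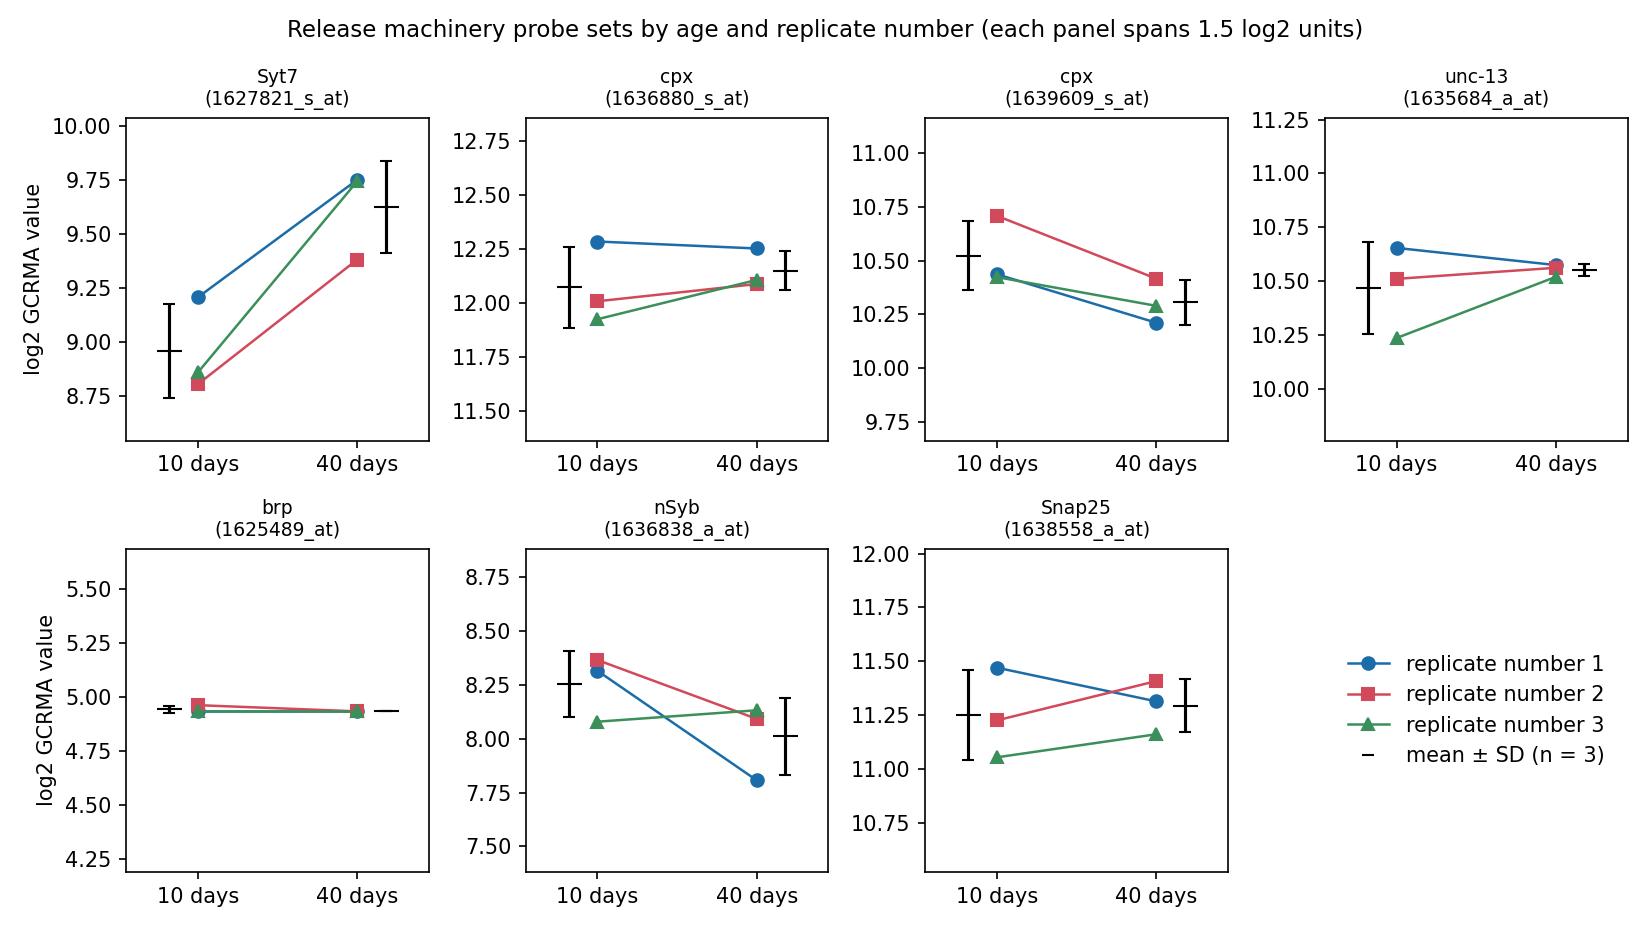
Log2 values of the 7 tested probe sets at 10 and 40 days, with a line joining the samples of each replicate number, black bars for the mean ± SD (n = 3 each), and the same height of scale in each panel. The 3 lines of *Syt7* climb by 0.55 to 0.89, the 3 lines of *cpx* 1639609_s_at fall by 0.13 to 0.29, and *brp* is flat at 4.93.

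*cpx*, which encodes Complexin, had 2 probe sets whose age differences had opposite signs. Probe set 1636880_s_at read 12.28, 12.01 and 11.92 at 10 days and 12.25, 12.09 and 12.11 at 40 days (numbers 1, 2 and 3). The ages overlapped throughout, with a difference of 0.077 ± 0.11 (SE; limma adjusted p = 0.802) and a 95% interval from -0.19 to 0.35. Probe set 1639609_s_at read 10.44, 10.71 and 10.42 at 10 days and 10.21, 10.42 and 10.29 at 40 days. All 3 older samples were below all 3 younger ones, but by a gap of 0.0070 only, and 8.42% of all tested probe sets were separated in this direction.

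The second *cpx* probe set was lower at 40 days within each number, at -0.23, -0.29 and -0.13, as were 23.2% of all tested probe sets. Its difference was -0.22 ± 0.11 (SE), with limma adjusted p = 0.443 and, with the block, adjusted p = 0.128. With the block its 95% interval ran from -0.37 to -0.061, which is not adjusted for the number of probe sets tested. The gap between the *cpx* probe sets was 1.55 ± 0.28 at 10 days and 1.84 ± 0.19 at 40 days (log2 ± SD, n = 3 each). The gap widened by 0.19, 0.37 and 0.32 within numbers 1, 2 and 3, by 0.29 on average. An exact two-sided permutation test that ignores the numbers gave p = 0.300, but with 3 samples against 3 it cannot go below 0.10, so it does not decide whether the probe sets differ. Opposite signs were common, at 35.3% of the 275 genes with 2 tested probe sets, and 22.2% had a gap between their age differences at least as large as that of *cpx*. Which *cpx* transcripts each probe set reads was not analysed here.

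*unc-13*, which encodes the priming factor that readies docked vesicles for fusion, did not pass the test. Its probe set read 10.65, 10.51 and 10.24 at 10 days and 10.57, 10.56 and 10.52 at 40 days. The younger samples spanned the older ones, with an SD of 0.21 at 10 days and 0.029 at 40 days. The difference was 0.085 ± 0.12 (SE; limma adjusted p = 0.787, and 0.576 with the block), and the 95% interval ran from 0.872 to 1.29-fold. Without day 10 replicate 3, the lowest of the 6, it turned to -0.030.

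*brp*, which encodes the ELKS-related scaffold of the presynaptic T-bar and is widely used as a marker of fly active zones, gave little or no signal on any of its 4 probe sets. Probe sets 1629132_at and 1632538_at read 2.06, the minimum over the whole table, on all 6 arrays. Probe set 1636216_at read 2.15 on 5 arrays and 2.19 in the 40-day sample of number 2. Of all 15131 probe sets, 3091 lay within 0.01 of the lowest value on every array, among them 1629132_at and 1632538_at, and values there have no order.

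The fourth *brp* probe set, 1625489_at, passed the filter at 4.93 but hardly varied. It read 4.93 on 5 arrays and 4.96 in the 10-day sample of number 2, a range of 0.029. A range of 0.05 or less was found for 0.603% of the tested probe sets, whose median range was 0.39. Its age difference was -0.0096 ± 0.057 (SE; limma adjusted p = 0.960). These 4 probe sets therefore give no measure of how *brp* transcript differs with age, and a low value here does not show that the transcript is absent.

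*nSyb*, the vesicle SNARE of neurons, was lower at 40 days within numbers 1 and 2 and not within number 3. It read 8.32, 8.37 and 8.08 at 10 days and 7.81, 8.09 and 8.13 at 40 days. The groups overlapped, since the 40-day samples of numbers 2 and 3 lay above the 10-day sample of number 3. The difference was -0.24 ± 0.12 (SE), or 0.845-fold with a 95% interval of 0.685 to 1.04, and it did not pass the test (limma adjusted p = 0.460, and 0.289 with the block). Within the numbers the differences were -0.51, -0.27 and 0.053.

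*Snap25*, which encodes the plasma membrane SNARE with which nSyb pairs, also did not pass. It read 11.47, 11.23 and 11.05 at 10 days and 11.31, 11.41 and 11.16 at 40 days, and the older samples all lay inside the range of the younger ones. The difference was 0.044 ± 0.13 (SE; limma adjusted p = 0.909), with a 95% interval of 0.832 to 1.28-fold. Its sign differed between the numbers, at -0.16, 0.18 and 0.11. The replicate number made up 71.5% of its spread and the age 2.43%. For *cpx* 1636880_s_at these shares were 78.9% and 9.15%, and for *unc-13* 56.5% and 10.6%.

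**Figure D2:**
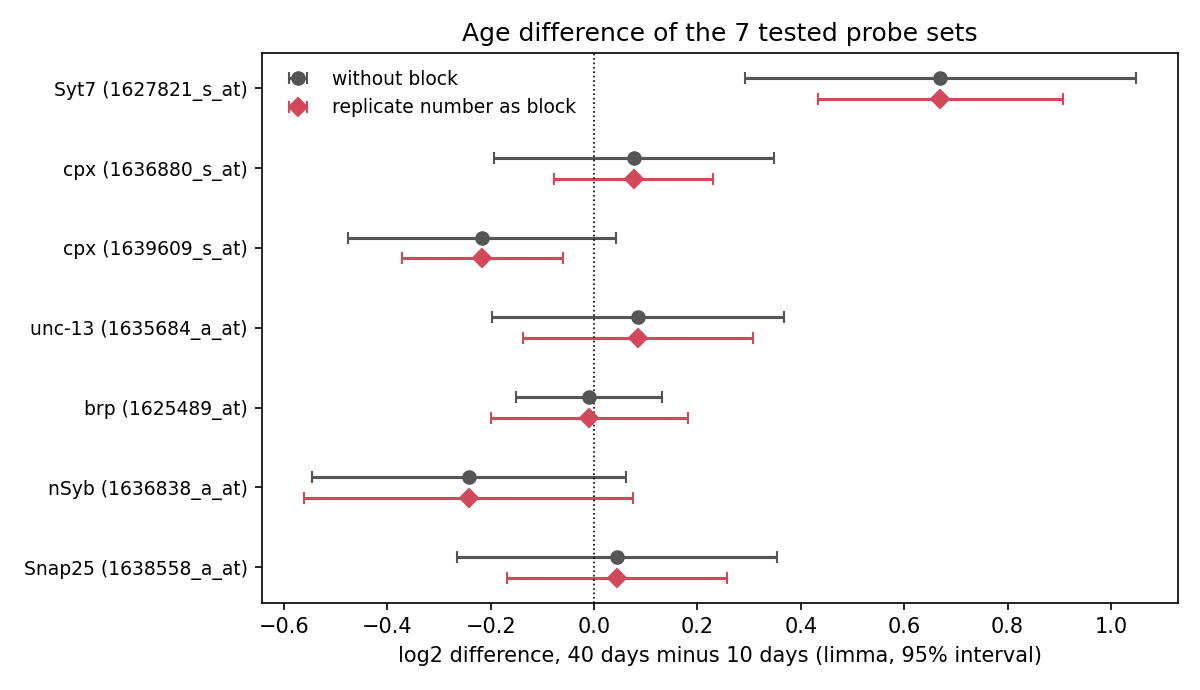
Age difference of each tested probe set on the log2 scale, 40 days minus 10 days, with 95% intervals from limma without a block (grey circles) and with the replicate number as a block (red diamonds). The *Syt7* intervals, 0.29 to 1.05 and 0.43 to 0.91, lie above 0, that of *cpx* 1639609_s_at with the block lies below 0, and the other intervals include 0.

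At 10 days, but not at 40 days, most members were lowest in the same replicate number as most neuron markers. Leaving out the flat *brp* probe set, the 10-day sample of number 3 was the lowest of its age for 5 of 6 member probe sets and for 8 of the 11 neuron marker probe sets tested, where this held for 32.4% of all tested probe sets. The exception among the members was *Syt7*, which was lowest in number 2, and *cpx* 1639609_s_at was lowest in number 3 only narrowly, at 10.42 against 10.44 in number 1. At 40 days each number was the lowest for 2 of the 6 member probe sets, while number 3 was the lowest for 7 of the 11 neuron marker probe sets. The mean of the neuron markers was 8.85, 8.72 and 8.56 at 10 days and 8.82, 8.88 and 8.79 at 40 days (numbers 1, 2 and 3). The neuron marker *elav*, an RNA binding protein of neurons, read 8.94, 8.79 and 8.40 at 10 days and 8.58, 8.73 and 8.57 at 40 days.

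Against that neuron marker mean, *nSyb* differed between the ages by -0.36 and *cpx* 1639609_s_at by -0.33. The rise of the neuron marker mean, 0.12, rested largely on 3 probe sets of *Sh*, a potassium channel gene, and was 0.030 over the other 8 probe sets. Without *Sh*, the relative differences were -0.27 for *nSyb* and -0.25 for *cpx* 1639609_s_at, whose ages then overlapped. The ages of *nSyb* overlapped in the values themselves and were apart only on the relative scales. How many of all tested probe sets are apart on these scales was not analysed here. *Snap25*, *unc-13* and *cpx* 1636880_s_at gave -0.074, -0.033 and -0.041 with *Sh* and 0.014, 0.055 and 0.047 without it, so their sign depended on that gene. No test was run on these relative values, scales chosen after the data were seen. The neuron markers themselves had a median difference of 0.14 over 11 probe sets, and none was called with or without the block (smallest adjusted p = 0.203 and 0.102). At an unadjusted p under 0.05, limma gave 2 of them without the block, both higher, where 13.1% of all tested had one. They were a probe set of *Sh* and that of *Rdl*.

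Other tissues moved between the samples as well. The mean level of 11 tested muscle marker probe sets lay between 11.11 and 11.15 at 10 days and between 11.39 and 11.42 at 40 days, so the ages did not overlap. Glia markers ranged from 9.78 to 9.81 and from 9.57 to 9.79 over 9 probe sets, photoreceptor markers from 10.69 to 10.86 and from 10.70 to 10.90 over 8. Male tract markers ranged from 13.71 to 14.22 and from 13.93 to 14.11 over 14 probe sets, and gut markers from 13.70 to 14.42 and from 13.71 to 14.75 over 5. Within the male tract list, *dj*, a sperm protein gene, fell by 1.18 (limma adjusted p = 0.00347, and 0.0123 with the block). *Mst84Db*, *Mst84Dd* and *betaTub85D* gave 0.27, 0.25 and 0.20 without overlap of the ages (limma adjusted p between 0.209 and 0.316). Of the 11 muscle marker probe sets, 8 were higher at 40 days without overlap. Groups did not overlap in this direction for 11.4% of all tested probe sets. Among the muscle markers, *Act87E* at 0.38 and *TpnC73F* at 0.60 passed with the block only (limma adjusted p = 0.0366 and 0.0416), where 1.92% of all tested were called. The part of these tissues in the *Syt7* difference was not tested.

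**Figure D3:**
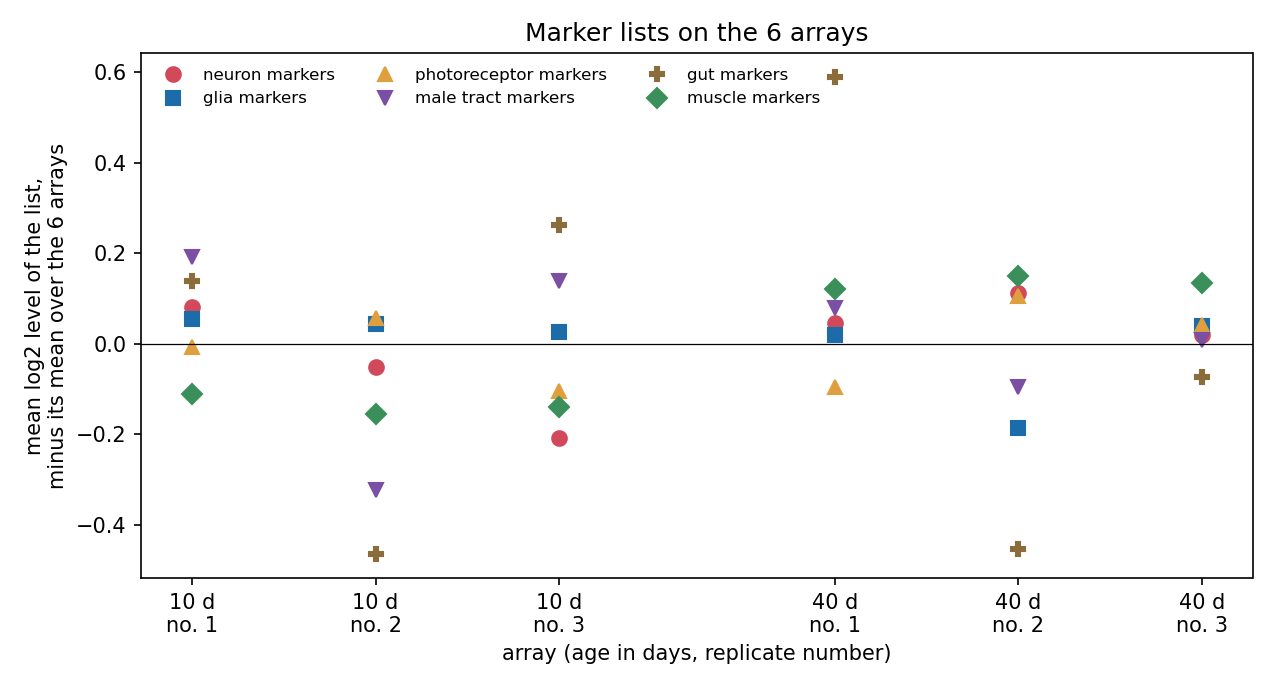
Mean log2 level of each marker list on each array, minus the mean of the list over the 6 arrays, by age and replicate number. Neuron markers are lowest in the 10-day sample of number 3, muscle markers are higher in all 3 older samples, and gut and male tract markers are lowest in number 2 at both ages.

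The other genes of vesicle release and recycling showed no called change. Lists of 65 genes, of which 52 had a probe set, gave 52 tested probe sets for 44 genes. Of these 31 were higher and 21 lower at 40 days, with a median of 0.041 and a range from -0.51 to 0.28. By limma, 0 of the 52 were called without the block and 0 with it, where 0.340% and 1.92% of all tested were called. An unadjusted limma p under 0.05 was found for 5 and 11 of the 52, where 13.1% and 25.1% of all tested had one. The smallest adjusted p was 0.209 without and 0.0781 with the block. Groups did not overlap for 9 of the 52, where 19.8% of all tested did not.

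Docking and priming genes had 8 tested probe sets, 5 higher and 3 lower, with a median of 0.030. *Rab3*, the small GTPase of synaptic vesicles, differed by 0.17 ± 0.082 (SE; limma adjusted p = 0.428). It was higher in all 3 numbers, as were 26.1% of all tested probe sets. *tomosyn*, which encodes an inhibitor of SNARE assembly, gave 0.13 and *Rab3-GEF*, an exchange factor for Rab3, 0.12 (adjusted p = 0.595 and 0.657). *Rab27* lay under 4, as did 2 of 3 probe sets of *Rim*.

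Active zone and calcium entry genes had 10 tested probe sets, 7 higher and 3 lower, with a median of 0.052. *cac*, the pore-forming subunit of the presynaptic calcium channel, differed by 0.23 ± 0.14 (SE; limma adjusted p = 0.512), and *stj*, its alpha2delta subunit, by -0.14 (adjusted p = 0.580). *Fife*, which encodes a Piccolo-RIM related scaffold, gave 0.17 (adjusted p = 0.600). The scaffold genes *Fife*, *Rim* and *Rbp* and the channel subunit genes *cac* and *Ca-beta* each had at least 1 probe set near the lowest value of the table, and each also had a tested one. Such values were common, since 3091 of all 15131 probe sets lay within 0.01 of the lowest value on every array.

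Among other SNAREs and NSF factors, 5 of 15 genes had a probe set and all 7 probe sets were tested, with 3 higher, 4 lower and a median of -0.041. *Syb*, the synaptobrevin used outside neurons as well, gave -0.29 ± 0.072 (SE; limma adjusted p = 0.233, and 0.0945 with the block) on probe set 1626835_at, and -0.041 and 0.14 on its other 2 probe sets. *Snap24*, a relative of *Snap25*, gave -0.26 and *Vamp7*, a SNARE of the late endosome and lysosome, -0.14 (adjusted p = 0.516 and 0.425). All 3 genes were lower in each number on these probe sets, as were 23.2% of all tested probe sets.

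Of the synaptotagmins proper that had a listed probe set, *Syt7* was the only one bright enough to be tested. *Syt12*, *Syt14*, *Sytalpha* and *Sytbeta* lay under 4 on average, with *Syt12* between 3.41 and 3.99. *Esyt2*, an extended synaptotagmin that tethers the endoplasmic reticulum to the plasma membrane, was tested and differed by 0.068 ± 0.090 (SE; limma adjusted p = 0.783). The age difference of *Syt7* was larger in size than that of each of the 52 probe sets of the pathway lists, the nearest being the -0.51 of *fwe*.

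Vesicle proteins and transporters had 8 tested probe sets, 5 higher and 3 lower, with a median of 0.077. *VAChT*, which loads acetylcholine into vesicles, read 5.12 ± 0.11 at 10 days and 5.39 ± 0.030 at 40 days (log2 ± SD, n = 3 each), a difference of 0.28 that did not pass (limma adjusted p = 0.269). *Csp*, a vesicle chaperone, gave 0.15 and *Vmat*, the monoamine transporter, -0.12 on probe set 1628739_at (adjusted p = 0.585 and 0.647). The other 2 tested probe sets of *Vmat* gave 0.16 and -0.048 (adjusted p = 0.713 and 0.828). *VGlut*, *VGAT* and *prt* lay near the lowest value.

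Vesicle endocytosis genes, which retrieve vesicle membrane after fusion, had 18 tested probe sets, 10 higher and 8 lower, with a median of 0.011. *fwe*, which encodes a vesicle membrane protein with a role in endocytosis, read 7.86 ± 0.17 at 10 days and 7.35 ± 0.13 at 40 days on probe set 1637808_a_at (log2 ± SD, n = 3 each). That difference of -0.51 ± 0.12 (SE) did not pass (limma adjusted p = 0.209, and 0.0781 with the block), and a second tested probe set, 1628390_at, gave -0.10. *shi*, the dynamin gene, gave 0.24 on 1637637_at and -0.036 and -0.041 on its other 2 probe sets, and *Dap160*, an endocytic scaffold gene, gave 0.20 (adjusted p = 0.345 for 1637637_at and 0.351).

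**Figure D4:**
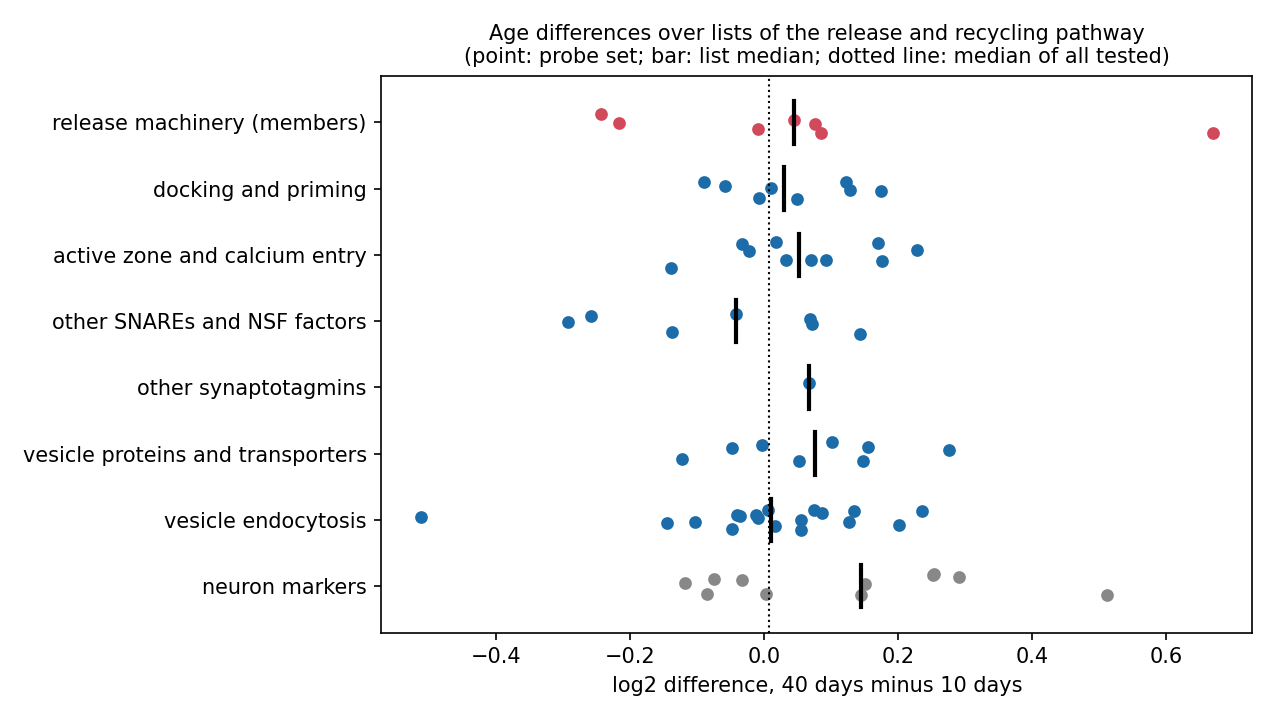
Age difference of each tested probe set on the log2 scale, 40 days minus 10 days, for the members (red), the other lists of the pathway (blue) and the neuron markers (grey), with list medians as black bars and the median over all tested probe sets, 0.0070, as a dotted line. *Syt7* at 0.67 lies to the right of every other point, and list medians lie between -0.041 and 0.14.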

How the data were processed

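Values were deposited as log2 expression between 2.06 and 16.10; per the submitters' processing notes the authors made them with GCRMA, a method that subtracts background by probe sequence, equalises arrays and gives 1 value per probe set. For its version and for filters: not given in the sources used here. RNA of 150 ng per sample was amplified, per the labels. No further scaling was applied. Genes came from the array's gene table, with symbols updated through gene IDs to RefSeq names.

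Probe sets with a mean of at least 4 were tested two-sided with lmFit and eBayes (trend on) of limma 3.58.1 under R 4.3.3, with Benjamini-Hochberg adjustment over all of them and a threshold of 0.05. The fit was also tested on simulated data. Intervals are at 95% and are not adjusted for the number of probe sets tested. The labels give the replicate numbers without saying whether they pair samples. After removal of age means, same-numbered samples correlated at 0.707, 0.772 and 0.353, all above 0.1, so the numbers were taken to pair them. The labels call the samples independent biological replicates.

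Named genes are all members, the up to 3 smallest unadjusted p of each pathway list, the up to 3 brightest of each marker list and any neuron marker. Other names were chosen after their values were seen: genes with a probe set under 4, other probe sets of a named gene, and male tract and muscle markers that were called or did not overlap. Members, lists and tests were chosen with earlier results of these data known. Alternatives were other filters, scalings, eBayes settings, a floor, the block and samples left out.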

Additional observations from a re-analysis of the deposited data

How the results depend on the processing

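With the replicate number as a block, 1 member probe set was called in place of 0, and so it was with the block together with a robust eBayes, a filter at 6, median centring, quantile normalization or values under 4 set to 4 (*Syt7*, adjusted p from 0.0240 to 0.0465). These combinations, and the block with numbers left out, were chosen after the data were seen. *Syt7* kept its sign under all 25 alternatives, from 0.56 to 0.80, and was called under 6 of the 11 with a block and 0 of the 14 without (limma adjusted p from 0.199 to 0.492). No other member was called under any of them. *nSyb* and both *cpx* probe sets kept their sign. *Snap25* ran from -0.054 (day 10 replicate 3 omitted) to 0.15 with 1 sample left out, was -0.013 with day 40 replicate 2 omitted, and gave -0.025 without number 2 at both ages, with or without the block. *unc-13* ran from -0.030 (day 10 replicate 3 omitted) to 0.18 with 1 sample left out and gave -0.014 with the block and without number 3. *brp* turned to 0.0052 after quantile normalization, with or without the block. The median over the members ran from -0.030 to 0.15 with 1 sample left out, the latter without day 10 replicate 1. The widening between the *cpx* probe sets was 0.25 without number 2.

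Over all probe sets, 35 were called, 21 with a filter at 6, 17 without both samples of number 2 and 16 to 32 with 1 sample left out. With the block the count was 198, and 395 robust, 119 without a trend, 294 with a filter at 6, 262 median centred, 248 quantile normalized, 200 with the floor, and 7, 118 and 32 without number 1, 2 or 3. With the block and no filter, limma called 0, where 2385 had an unadjusted p under 0.05. No pathway probe set was called under any alternative. An unadjusted limma p under 0.05 was found for 5 without the block and 11 with it. Over the alternatives this count ran from 3 to 7 without the block and from 4 to 11 with it.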
